A study of Mus musculus with 19 samples.

Results

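The 10 genes followed here in the mouse hippocampus encode the main cytosolic and mitochondrial heat shock chaperones: Hspa1a, Hspa1b, Hspa8, Hsp90aa1, Hsp90ab1, Dnajb1, Hsph1, Hspd1, Hspe1 and Bag3. They were chosen by gene symbol, and all 10 were found among the 20655 genes of the count table and passed the filter on low counts. Bulk RNA sequencing gave 1 library for each of 19 mice, from the left hippocampus at 4 months of age. The groups were knock-in females (n = 4), 5xFAD females (n = 5), knock-in males (n = 5) and 5xFAD males (n = 5). Knock-in animals were hemizygous for 5xFAD and homozygous for the allele written CLUh2kbKI in the labels, a knock-in at the clusterin gene that the series design calls CLU-2kb-KI. The 5xFAD animals were hemizygous for 5xFAD alone, so every mouse compared here carried 5xFAD, a transgenic model of Alzheimer's disease whose transgenes are driven by the neuronal Thy1 promoter. The labels do not say what the knock-in changes in clusterin, and they name no littermates.

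Heat shock chaperones bind unfolded stretches of other proteins and help them to fold, to be held or to be handed to degradation. Hsp70 proteins take up clients that Hsp40 proteins deliver, and nucleotide exchange factors release them. Hsp90 completes the folding of kinases and receptors, and Hsp60 with its lid Hsp10 folds proteins imported into mitochondria. A set of them is induced by heat shock factor 1, which binds repeated GAA units in promoters when unfolded protein accumulates, while others are made at high level in unstressed neurons. Clusterin, the gene that was knocked in, encodes a secreted chaperone that acts outside cells.

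The promoters of the members differ in sequence, and 3 stretches are printed because the results below concern pairs that share sequence or a promoter. Windows of 250 bases before to 50 bases after each annotated start were taken from RefSeq (build GRCm38.p6), and no window was given for Hspa8, Hsp90aa1 or Hsp90ab1. The first sequence is the stretch between the start of Hspe1 and 1 of the 2 annotated starts of Hspd1, at chr1:55087933-55088147 on the plus strand. These neighbours on chromosome 1 are read away from each other, with starts 216 bases apart, and their windows overlap by 285 bases. The others are the 250 bases before the starts of Hspa1a (chr17:34972157-34972406) and Hspa1b (chr17:34959239-34959488), both on the minus strand and printed in the direction of transcription. Capitals mark heat shock elements by letters, runs in which GAA and its reverse complement TTC alternate.
between Hspd1 and Hspe1: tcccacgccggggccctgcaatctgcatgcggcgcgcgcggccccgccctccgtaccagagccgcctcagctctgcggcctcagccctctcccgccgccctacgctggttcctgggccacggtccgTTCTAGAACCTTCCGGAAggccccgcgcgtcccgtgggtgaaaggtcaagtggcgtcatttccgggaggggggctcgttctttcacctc
Hspa1a: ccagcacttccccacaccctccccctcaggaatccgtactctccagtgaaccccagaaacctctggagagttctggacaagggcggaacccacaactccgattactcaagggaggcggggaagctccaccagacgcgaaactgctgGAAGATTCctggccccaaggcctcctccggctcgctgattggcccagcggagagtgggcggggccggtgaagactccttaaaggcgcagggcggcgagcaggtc
Hspa1b: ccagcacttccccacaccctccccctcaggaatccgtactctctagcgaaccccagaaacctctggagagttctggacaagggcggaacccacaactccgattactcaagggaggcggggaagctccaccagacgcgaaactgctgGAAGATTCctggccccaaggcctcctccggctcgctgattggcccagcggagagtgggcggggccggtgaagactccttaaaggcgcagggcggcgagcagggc

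The run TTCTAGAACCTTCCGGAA between Hspd1 and Hspe1 is 18 bases long and ends 72 bases before the start of Hspe1. Its 4 alternating units hold 2 overlapping matches to a 3-unit pattern (GAA, TTC and GAA, each set apart by 2 bases of any kind, or TTC, GAA and TTC), which was searched on both strands and occurs in 0.603% of 32851 mouse promoter windows. Hsph1 holds that pattern as TTCTGGAAAGTTC just after its starts. Hspa1a and Hspa1b hold only the shorter pattern GAANNTTC or TTCNNGAA, as GAAGATTC beginning 104 bases before their starts, and Bag3 holds it as GAAGTTTC. The shorter pattern is common, in 15.1% of windows, and neither pattern is in the windows of Dnajb1. The Hspa1a and Hspa1b stretches are 98.8% identical, with 3 differing bases out of 250. A match is a description of letters in these windows and not evidence of binding.

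The smallest library held 17.28 M counts and the largest 25.2 M (M, mega), and 18204 genes were tested. Library totals ran from 19.72 to 25.2 M in knock-in females and from 17.82 to 19.31 M in 5xFAD females, without overlap. The totals of the male groups overlapped. The part of depth in the female differences was not tested. Levels are given as CPM, the count divided by a library size that TMM factors adjust. Clu was not called in any comparison and had 1204 ± 187 CPM in knock-in females and 983 ± 139 CPM in 5xFAD females (SD, n = 4 and 5), so it does not check the genotype labels. The labels name no batch, and the library names of the 2 genotypes fall in separate runs, so processing order and genotype cannot be told apart.

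Set per kilobase of exon, the members spanned a wide range of abundance. Hsp90ab1, the constitutive cytosolic Hsp90, had the highest level at 549 ± 60.7 CPM per kilobase (SD, n = 19). Hspa8, the constitutive Hsp70, followed at 410 ± 47.8, and Hsp90aa1, the stress-inducible Hsp90, stood at 284 ± 31.99 CPM per kilobase. The mitochondrial Hsp60 gene Hspd1 had 62.4 ± 6.75 CPM per kilobase, and Hspe1, which encodes its Hsp10 lid, had 33.7 ± 5.83. Between these lay Hsph1, which encodes Hsp110, a nucleotide exchange factor for Hsp70, at 41.2 ± 3.88 CPM per kilobase. Dnajb1, the Hsp40 partner of inducible Hsp70, had 16.5 ± 2.59, and the inducible Hsp70 genes Hspa1b and Hspa1a had 8.55 ± 2.39 and 8.04 ± 1.71 CPM per kilobase. Bag3, an exchange factor that directs clients to autophagy, was lowest at 4.67 ± 0.976. The order was the same in 19 of 19 libraries for every pair of neighbours except Hsph1 over Hspe1, in 17 of 19, and Hspa1b over Hspa1a, in 13 of 19. Ranges over the animals also overlapped for Hsp90ab1 and Hspa8, Dnajb1 and Hspa1b, and Hspa1a and Bag3, although each library kept their order.

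The question the design asks is whether the knock-in changes these levels on the 5xFAD background. Over both sexes, with sex as a covariate, 0 of the 10 members passed an adjusted p of 0.05 (edgeR quasi-likelihood test, Benjamini-Hochberg over 18204 genes), where 0.022% of all genes did. By unadjusted p 1 of 10 passed, where 11.9% of all genes did, and DESeq2 also called 0 members. The median log2 change of the members was 0.06 (range -0.04 to 0.26). Bag3 had the largest change, 0.26 ± 0.12 (SE, edgeR adjusted p = 0.412). In bulk tissue, a change in how many cells of a type were sampled and a change in RNA per cell cannot be told apart.

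In females, all 10 members had a positive change with the knock-in, against 51.1% of all genes, although Hspa1a and Hspe1 turned negative when scaled by library size alone. By edgeR 0 of 10 passed an adjusted p of 0.05, where 5.56% of all genes did. At an unadjusted p of 0.05, 4 of 10 passed, against 22.1% of all genes. DESeq2 called 3 members, where it called 1810 of all 18204 genes. The median log2 change was 0.16 (range 0.01 to 0.54). All 4 knock-in females lay above all 5 5xFAD females for Hspa8, Hsp90aa1, Hsp90ab1 and Hspd1, which is 4 of 10 members where 3.86% of all genes showed that order. None of these 4 genes passed the adjusted test.

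Hspa8 had 1730, 1938, 2007 and 2096 CPM in knock-in females, against 1524, 1433, 1634, 1653 and 1673 CPM in 5xFAD females. Every knock-in female was above every 5xFAD female, the closest pair being 1730 and 1673 CPM. The log2 change was 0.30 ± 0.10 (SE, edgeR adjusted p = 0.085). Hspa8 protein serves unstressed cells, among other tasks in the uncoating of clathrin vesicles.

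Hsp90aa1 had 1179, 1214, 1228 and 1243 CPM in knock-in females, against 943, 930, 1021, 1030 and 1070 CPM in 5xFAD females. The groups did not overlap, and the knock-in females were close together. The log2 change was 0.28 ± 0.09 (SE, edgeR adjusted p = 0.0697). For Hsp90ab1 the values were 1691, 1724, 1767 and 1794 CPM in knock-in females, against 1482, 1442, 1504, 1499 and 1560 CPM in 5xFAD females. These also did not overlap, and the log2 change was 0.22 ± 0.11 (SE, edgeR adjusted p = 0.224).

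Bag3 showed the largest change of the members in females. It had 11.6, 14.9, 17.8 and 15.6 CPM in knock-in females, against 8.81, 10.4, 12.5, 8.82 and 10.8 CPM in 5xFAD females. Knock-in female 1 lay below the highest 5xFAD female, and the other 3 knock-in females lay above all 5. The log2 change was 0.54 ± 0.16 (SE, edgeR adjusted p = 0.0511). Bag3 passed the threshold when any 1 of these animals was left out, namely knock-in female 1, 5xFAD female 3, knock-in males 7, 9 and 10, and 5xFAD males 6, 9 and 10 (edgeR adjusted p from 0.0296 to 0.0469), and by DESeq2 (adjusted p = 0.0195). Hsp90aa1 passed without knock-in male 7 or 10 (edgeR adjusted p = 0.0368 and 0.0401) and Hspa8 without knock-in male 10 (edgeR adjusted p = 0.0456).

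Of the mitochondrial pair, Hspd1 separated the female groups and Hspe1 did not. Hspd1 had 180, 164, 184 and 174 CPM in knock-in females, against 152, 157, 155, 156 and 159 CPM in 5xFAD females. The groups did not overlap, and the 5xFAD females were close together (coefficient of variation 1.62%). The log2 change was 0.17 ± 0.11 (SE, edgeR adjusted p = 0.369). Hspe1 had 52.1, 40.1, 57.4 and 49.1 CPM in knock-in females, against 64.6, 49.3, 37.1, 51.5 and 43.9 CPM in 5xFAD females. The Hspe1 groups overlapped fully, and the estimate was 0.01 ± 0.16 on the log2 scale (SE, edgeR adjusted p = 0.975).

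For the inducible Hsp70 genes, Dnajb1 and Hsph1, the female groups overlapped. Hspa1a had 27.2, 19.2, 23.3 and 21.3 CPM in knock-in females, against 25.0, 21.1, 22.5, 23.8 and 19.2 CPM in 5xFAD females. The values interleaved, and the estimate was 0.03 ± 0.19 on the log2 scale (SE, edgeR adjusted p = 0.953). Hspa1b and Dnajb1 overlapped as well, with log2 changes of 0.13 ± 0.26 and 0.10 ± 0.15 (SE, edgeR adjusted p = 0.814 and 0.743). Hsph1 had 298, 316, 295 and 328 CPM in knock-in females, against 272, 269, 284, 303 and 275 CPM in 5xFAD females, with 1 5xFAD female inside the knock-in range. Its log2 change was 0.14 ± 0.09 (SE, edgeR adjusted p = 0.361).

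**Figure D1:**
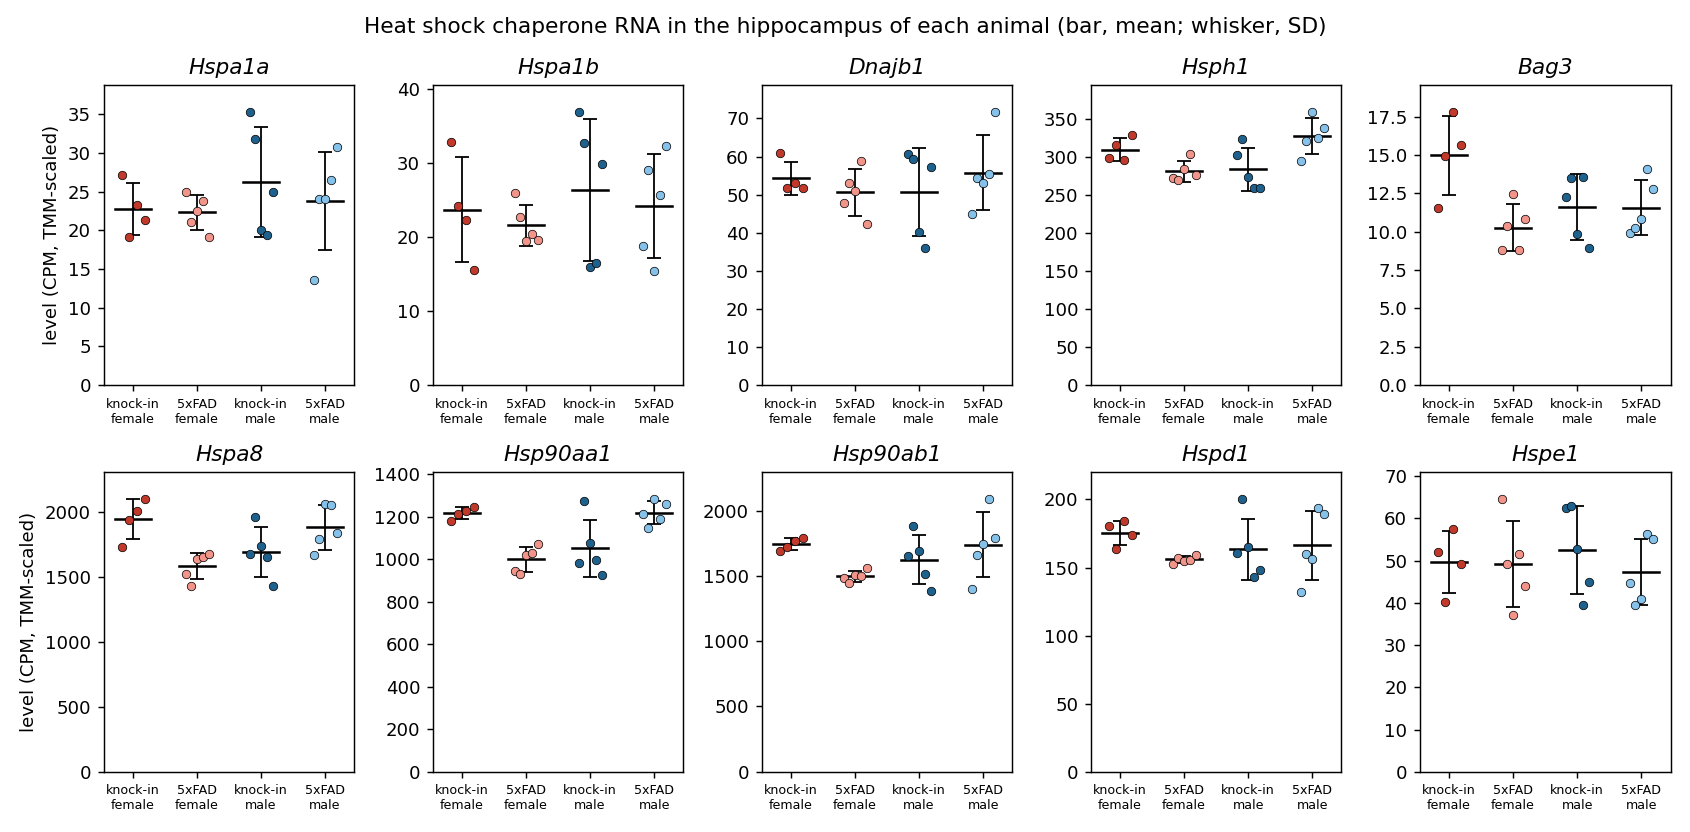
Level of each chaperone in each animal (CPM, TMM-scaled, linear axes from 0), by group, with the group mean as a bar and the SD as a whisker (n = 4 knock-in females, 5 in each other group). Hspa8, Hsp90aa1, Hsp90ab1 and Hspd1 separate knock-in from 5xFAD females without overlap, while Hspa1a and Hspa1b have their largest SD in the knock-in males.

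In males the direction was mixed. Of 10 members 4 had a positive change and 6 a negative one, where 51.9% of all genes had a positive one. The median log2 change was -0.06 (range -0.21 to 0.15), and 0 of 10 were called by edgeR, where 0% of all genes were. At an unadjusted p of 0.05, 2 of 10 passed, against 6.52% of all genes, and DESeq2 called 0 members. No member separated the male groups without overlap, as 1.02% of all genes did.

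Hsp90aa1 had 982, 1274, 1075, 997 and 925 CPM in knock-in males, against 1212, 1149, 1283, 1190 and 1258 CPM in 5xFAD males. All knock-in males except male 7 lay below every 5xFAD male. The log2 change was -0.21 ± 0.09 (SE, edgeR adjusted p = 0.723). Hsph1 had 302, 323, 273, 258 and 259 CPM in knock-in males, against 294, 320, 358, 325 and 338 CPM in 5xFAD males. The ranges overlapped through knock-in males 6 and 7, and the log2 change was -0.21 ± 0.08 (SE, edgeR adjusted p = 0.715).

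Hspa8 averaged 1692 ± 190 CPM in knock-in males and 1879 ± 171 CPM in 5xFAD males (SD, n = 5 each), and Hsp90ab1 averaged 1625 ± 189 CPM in knock-in males and 1738 ± 248 CPM in 5xFAD males. Their log2 changes were -0.15 and -0.10 (edgeR adjusted p = 0.821 and 0.902), with overlapping groups. Bag3 averaged 11.6 ± 2.14 CPM in knock-in males and 11.6 ± 1.80 CPM in 5xFAD males (SD, n = 5 each).

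The difference between the sexes was tested as the change in females minus that in males. None of the members, 0 of 10, passed an adjusted p of 0.05 in edgeR, where 0.308% of all genes did. At an unadjusted p of 0.05, 5 of 10 passed, where 17.7% of all genes did. DESeq2 called 3 members, where it called 766 of all 18204 genes. Without knock-in male 7, Hsp90aa1 and Hspa8 passed (edgeR adjusted p = 0.019 and 0.0497). The largest differences were those of Bag3 at 0.54 ± 0.22 and Hsp90aa1 at 0.50 ± 0.13 (log2, SE, edgeR adjusted p = 0.21 and 0.0676). Hspa8 followed at 0.45 ± 0.14, Hsph1 at 0.35 ± 0.12 and Hsp90ab1 at 0.32 ± 0.15 (log2, SE, edgeR adjusted p = 0.109, 0.138 and 0.254). For all of these but Bag3, the change was positive in females and negative in males. These comparisons share the 4 groups, so the sexes are also given within each genotype. Hsp90aa1 in all 5 5xFAD females was below that in all 5 5xFAD males, as 1.72% of all genes were. The log2 difference, female minus male, was -0.29 ± 0.09 in 5xFAD animals (SE, edgeR adjusted p = 0.35) and 0.21 ± 0.09 in knock-in animals (SE, edgeR adjusted p = 0.283). Within 5xFAD animals, 0 of 10 members were called by sex, where 0.0385% of all genes were, and 4 of 10 passed at an unadjusted p of 0.05, where 11.1% of all genes did. The same counts within knock-in animals were 0 of 10 and 2 of 10, where 0.0494% and 14.4% of all genes passed. DESeq2 called 0 members by sex in either genotype.

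**Figure D2:**
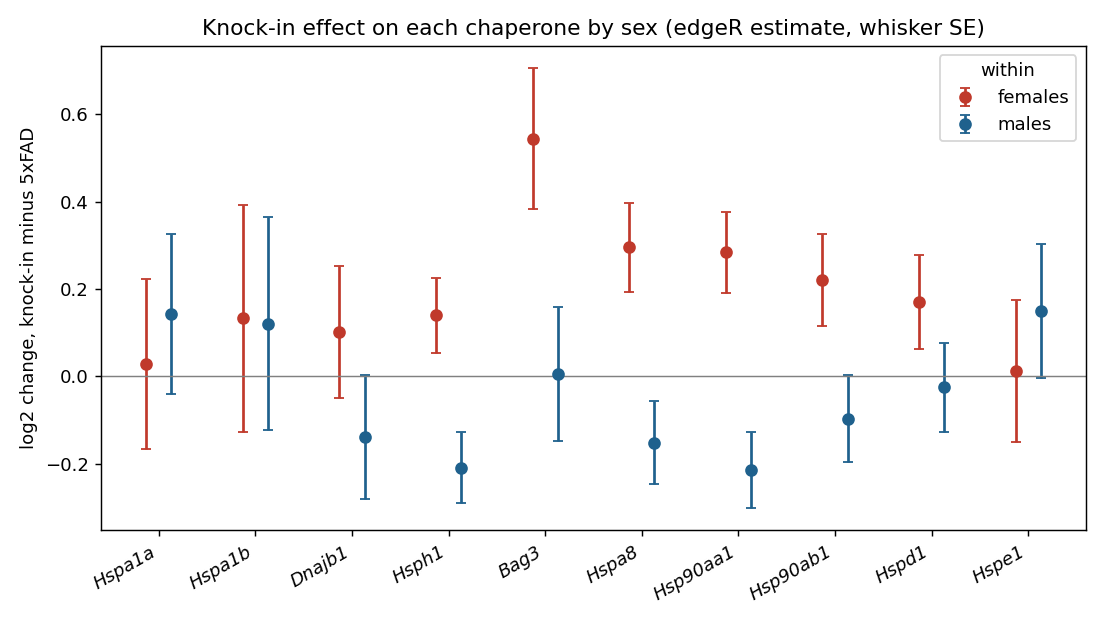
Log2 change of each chaperone with the knock-in, knock-in minus 5xFAD, in females and in males (edgeR estimate, whisker SE). In females the estimates run from 0.01 for Hspe1 to 0.54 for Bag3, and in males from -0.21 for Hsp90aa1 to 0.15 for Hspe1.

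The change in females moved with other features of the libraries. The mean log2 CPM of 8 noncoding RNAs, among them Malat1, Neat1 and Meg3, was 6.53 ± 0.43 in knock-in females and 8.21 ± 0.17 in 5xFAD females (SD, n = 4 and 5), with ranges of 6.16 to 7.08 and 7.999 to 8.38. By edgeR 7 of the 8 were called lower, where 807 of all 18204 genes were. In males it was 7.81 ± 0.53 in knock-in and 7.67 ± 0.74 in 5xFAD animals (SD, n = 5 each). With that level as a covariate, Hsp90ab1, Hspd1, Hsph1, Dnajb1, Hspa1a, Hspa1b and Hspe1 had negative changes in females, and 0 genes of the whole table were called. The level did not overlap between the female groups, so this fit can hardly separate it from the knock-in in females. Across the 19 animals, with group means removed, Hspd1 was lower where that level was higher (r = -0.649, permutation p adjusted over 10 genes = 0.0329, rho = -0.605, adjusted p = 0.0292). Without the 2 animals farthest from the median of that level, r was -0.429 (permutation p = 0.0867), so the relation of Hspd1 rests on those animals. All 10 members had a negative r with that level, and the share of all genes with a negative r was not computed. For Hsp90aa1 r was -0.586 and rho -0.618 (adjusted permutation p = 0.0596 and 0.0292), and for Hsp90ab1 r was -0.525 and rho -0.591 (adjusted permutation p = 0.0818 and 0.0292). Without the 2 farthest animals r was -0.510 for Hsp90aa1 and -0.494 for Hsp90ab1 (permutation p = 0.0369 and 0.041). By r or rho no other member passed the adjusted threshold. The part of this RNA level in the female differences was not tested beyond these values.

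Some cell type markers differed between the female groups as well. The summed astrocyte markers (5 genes) ran from 1862 to 1972 CPM in knock-in females, against 1510 to 1635 CPM in 5xFAD females, and 1 of 5, Aqp4, was called, where 1.13% of all genes were called higher. Globin and other erythrocyte markers ran from 192 to 355 CPM in knock-in females, against 100.2 to 159 CPM in 5xFAD females, and 3 of 5 were called. Microglia markers ran from 404 to 593 CPM in knock-in females, against 345 to 439 CPM in 5xFAD females, and endothelial markers from 178 to 193 CPM in knock-in females, against 149 to 172 CPM in 5xFAD females, with 0 of 5 called in each list. Choroid plexus markers ran from 3422 to 11278 CPM in knock-in females, against 613 to 5159 CPM in 5xFAD females, and 0 of 5 were called, while neuron markers ran from 3987 to 4683 CPM in knock-in females, against 3416 to 4558 CPM in 5xFAD females, and 0 of 5 were called. Oligodendrocyte markers ran from 4897 to 6932 CPM in knock-in females, against 3045 to 6071 CPM in 5xFAD females, with 5 of 5 changes positive and 0 called. Markers of hippocampal neurons, such as Prox1 and Neurod6, were detected in all 4 groups. In males, neuron markers ran from 3960 to 4632 CPM with the knock-in, against 4412 to 5274 CPM in 5xFAD. Of the 5 genes, 1 change was positive, and 2 passed an unadjusted p of 0.05, where 6.52% of all genes did. Snap25 changed by -0.30 in males, and females minus males gave 0.42 (log2, edgeR adjusted p = 0.694 and 0.146). Microglia markers ran from 368 to 522 CPM in knock-in males, against 272 to 376 CPM in 5xFAD males, and 3 of 5 passed unadjusted. No marker was called in males. The part of these cell types in the chaperone levels was not tested.

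The inducible Hsp70 genes ranged more widely between animals than the constitutive one. Hspa8 ranged 1.46-fold from the lowest to the highest of the 19 animals, Hspa1a 2.59-fold and Hspa1b 2.39-fold. Summed, Hspa1a and Hspa1b ranged 2.23-fold, with 72.1 CPM in knock-in male 6 at the top and 32.4 CPM in 5xFAD male 6 at the bottom. The sum had 72.1, 64.6, 35.9, 35.8 and 54.8 CPM in knock-in males, against 32.4, 53.1, 39.5, 52.1 and 63.0 CPM in 5xFAD males. Knock-in males 6, 7 and 10 lay well above males 8 and 9, and 5xFAD male 10 stood highest of its group. In females the sum was 60.0, 43.3, 45.6 and 36.9 CPM with the knock-in, against 51.0, 43.7, 42.0, 44.1 and 38.7 CPM in 5xFAD. The male and female groups overlapped between genotypes, and the log2 change of the summed gene was 0.08 ± 0.21 in females and 0.13 ± 0.20 in males (SE, edgeR adjusted p = 0.863 and 0.936).

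Within groups, the SD of log2 CPM was 0.43 for Hspa1b and 0.33 for Hspa1a. Those values exceed the spread of 94.99% and 87.3% of genes expressed within 0.5 log2 units of them. Hspe1, at 0.27, and Dnajb1, at 0.24, stood above 83.2% and 78.1% of genes of like level. At the other end, Hsp90aa1 and Hsph1 had SDs of 0.11 and 0.10, wider than only 1.30% and 5.49% of genes of like level. Of the 150-base stretches of Hspa1a transcripts, 38.1% also occur in Hspa1b, so the split of reads between them is uncertain, which the sum avoids. Other shared stretches were 28.5% for Hsp90aa1, 22.8% for Hspa8 and 16.1% for Hspd1, mostly with pseudogenes.

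**Figure D3:**
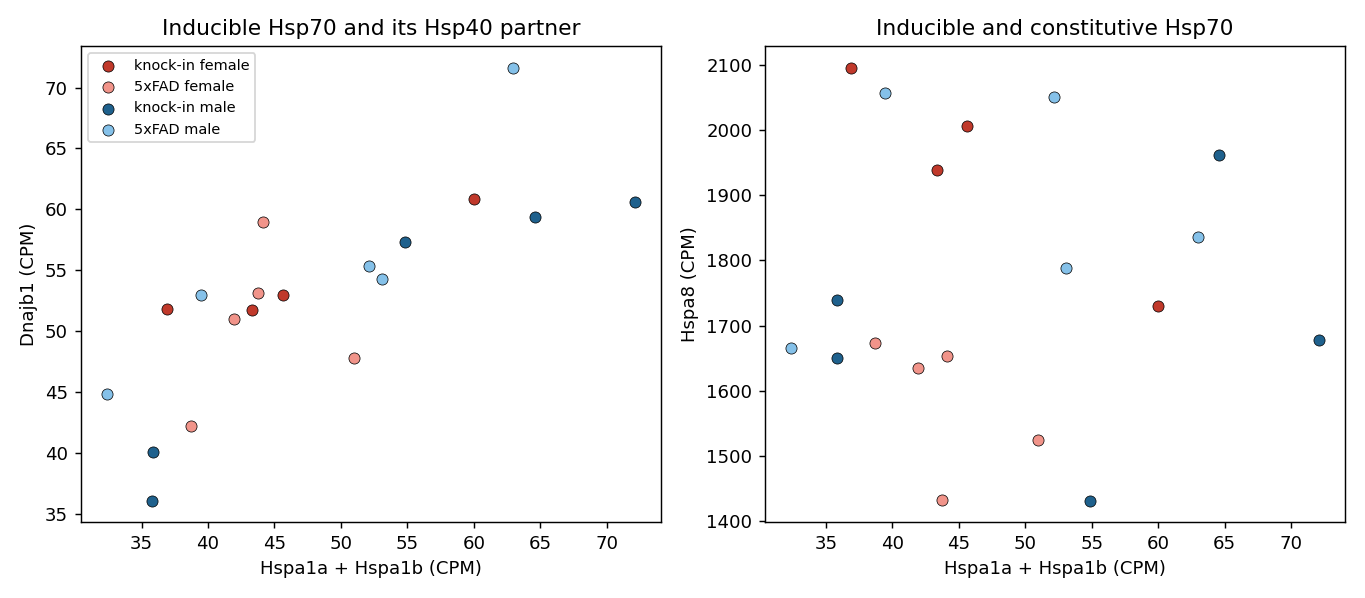
Summed Hspa1a and Hspa1b level against Dnajb1 (left) and Hspa8 (right), in CPM, with 1 point per animal coloured by group. Over the 19 animals Dnajb1 tends to be higher where the sum is higher, which runs from 32.4 to 72.1 CPM, and Hspa8 shows no such trend.

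Several members varied together, though how often other gene pairs do so was not computed. Of 45 pairs, 21 had a Pearson correlation with an adjusted p under 0.05 over the 19 animals with group means removed, 12 also by Spearman, and 10 of those kept an unadjusted p under 0.05 without the 2 animals farthest from the median of the gene named first. Hspa1a with Dnajb1 gave r = 0.830 and rho = 0.796, Hspa1b with Dnajb1 gave r = 0.760 and rho = 0.723, and Hspa1a with Hspa1b gave r = 0.708 and rho = 0.784 (permutation p adjusted over the 45 pairs by r, 0.00045, 0.0024 and 0.00328). Without the 2 farthest animals r was 0.797, 0.763 and 0.711. With the constitutive Hsp70 gene Hspa8, r was -0.275 for Hspa1b, -0.02 for Dnajb1 and 0.246 for Hspa1a, and none of these passed.

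Other pairs joined Hspa8, the Hsp90 genes and Hspd1, though not every pair of these passed. Hsp90ab1 with Hspd1 gave r = 0.877 and rho = 0.737, Hspa8 with Hsp90ab1 gave r = 0.818 and rho = 0.784, and Hspa8 with Hsp90aa1 gave r = 0.769 and rho = 0.725 (adjusted permutation p by r, 0.00045, 0.00045 and 0.00124). Without the 2 farthest animals these were 0.780, 0.717 and 0.603. The 2 Hsp90 genes gave r = 0.552 and rho = 0.639 (adjusted permutation p = 0.041 and 0.0201). Their r was 0.219 without the 2 farthest animals (permutation p = 0.42), so r rests on those animals. Hspd1 and Hspe1, which share the promoter stretch printed above, gave r = 0.590 and rho = 0.621, and r = 0.636 without the 2 farthest (adjusted permutation p by r = 0.0257). Hsph1 gave r = 0.731 with Hspa8 and 0.640 with Hsp90ab1 (adjusted permutation p by r, 0.0024 and 0.0127). Hspd1 did not pass with Hsp90aa1 (r = 0.510, adjusted permutation p = 0.061). With Hspa8 it passed by r but not by rho (adjusted permutation p = 0.0297 and 0.13).

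**Figure D4:**
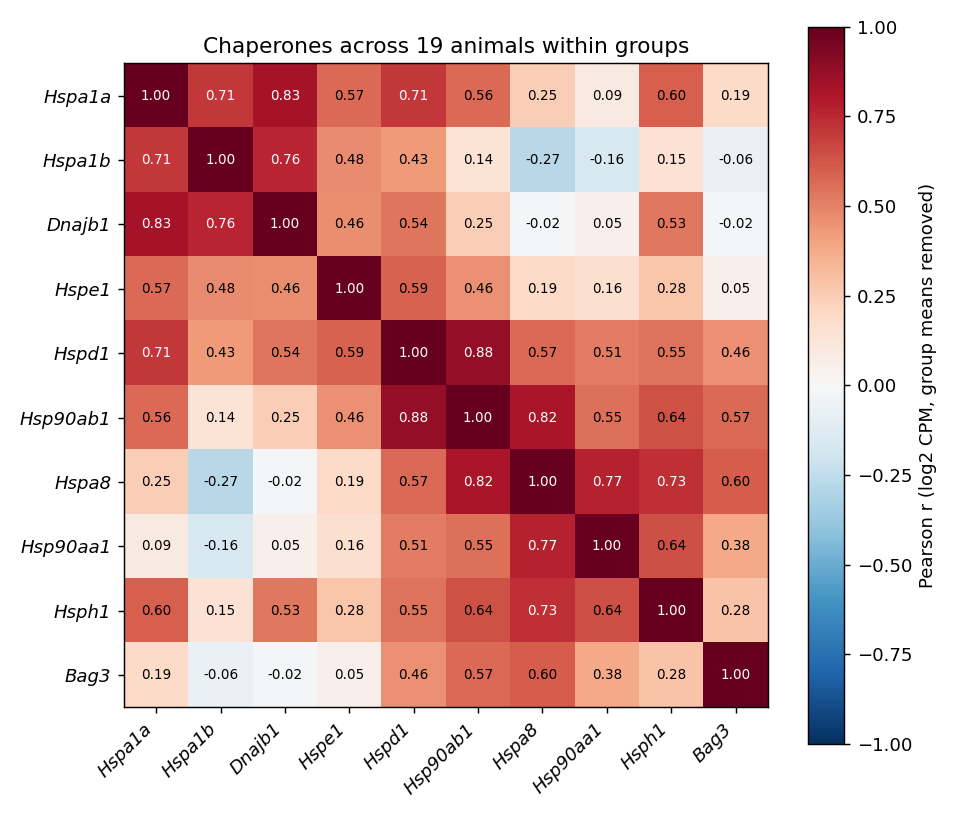
Pearson r between the chaperones over 19 animals, from log2 CPM with group means removed (colour and printed value). The pairs among Hspa1a, Hspa1b and Dnajb1 run from 0.71 to 0.83, Hspa8 gives 0.77 and 0.82 with the Hsp90 genes, and Hspa8 gives -0.27 with Hspa1b.

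By the same measure, the genes most like summed Hspa1a and Hspa1b among 13875 genes were Mknk2 (r = 0.924), Ormdl3 (0.919), Ncbp2 (0.918), Tmem9 (0.900) and Sap30 (0.894), and Dnajb1 ranked 23rd (0.857). For Hspa8 the 5 most alike were Fscn1 (0.903), Eif2b5 (0.901), Eef1a2 (0.896), Gnb1 (0.892) and Xbp1 (0.892), with Hsp90ab1 at rank 85. For Hspd1 they were Mcfd2 (0.927), Blvrb (0.925), Sfr1 (0.923), Atp5d (0.923) and Eipr1 (0.917), with Hspe1 at rank 1612 of 13876 (0.590). These ranks describe likeness over the same 19 libraries and share their depth and composition.

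Of the related chaperone lists, that of the endoplasmic reticulum held the most calls in females. Of its 14 members, 6 were higher with the knock-in by edgeR and 0 lower, where 1.13% of all genes were called higher, and the list's median log2 change was 0.37. Hspa5, which encodes the reticulum's Hsp70, had 323 ± 52.1 CPM in knock-in females and 206 ± 21.6 CPM in 5xFAD females (SD, n = 4 and 5), a log2 change of 0.65 (edgeR adjusted p = 0.013). Pdia4, a protein disulfide isomerase, had 61.3 ± 9.24 CPM in knock-in females and 39.1 ± 7.06 CPM in 5xFAD females (log2 0.65, edgeR adjusted p = 0.012). Pdia3, Canx, Hsp90b1 and Dnajc3 rose by 0.49, 0.40, 0.39 and 0.43 on the log2 scale (edgeR adjusted p = 0.018, 0.029, 0.036 and 0.048). These calls depended on the animals kept: 0 of the 14 were called without knock-in female 2 or without knock-in female 4, and 3 without 5xFAD female 1 or 4. Without knock-in female 2 or 4, 0 genes of the whole table were called either. With 1 library left out, log2 estimates ran from 0.55 to 0.70 for Hspa5 and 0.53 to 0.74 for Pdia4. They ran from 0.43 to 0.60 for Pdia3, 0.33 to 0.48 for Canx, 0.33 to 0.47 for Hsp90b1 and 0.32 to 0.52 for Dnajc3. With the noncoding RNA level as a covariate 0 of the 14 were called, and 0 genes of the whole table. That fit can hardly separate the level from the knock-in in females. In males 0 of 14 were called, where 0 of all 18204 genes were. The difference between the sexes for Hspa5 did not pass (log2 0.67, edgeR adjusted p = 0.088).

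In each other chaperone list at most 1 gene was called in females, where 1.13% of all genes were called higher and 5.56% in either direction. Of the lists, 1 of 9 other Hsp70 and Hsp110 genes was called, Hspa13, whose product is an Hsp70 of the endoplasmic reticulum (log2 0.31, edgeR adjusted p = 0.037), and 1 of 14 Hsp90 co-chaperones, Ptges3, the p23 co-chaperone (log2 0.40, edgeR adjusted p = 0.042). For each of these 2 genes, 10 of 29 alternatives ended the call. None was called among 13 Hsp40 genes, 7 genes for nucleotide exchange factors and the Hsp70 co-chaperone Hip, 8 CCT chaperonin subunits, 12 mitochondrial chaperones and proteases or 6 small heat shock proteins. The small heat shock proteins had a median log2 change of 0.42 in females, with Hspb8, a partner of Bag3, at 0.59 and Hspb6 at 0.73 (edgeR adjusted p = 0.061 and 0.104). Hsf1, which encodes the heat shock factor, had 25.7, 26.8, 25.8 and 31.0 CPM in knock-in females, against 40.7, 31.5, 35.9, 32.7 and 36.8 CPM in 5xFAD females. The groups did not overlap, the knock-in females being lower, an order that 9.03% of all genes showed, and the log2 change was -0.38 (edgeR adjusted p = 0.076). In males 0 genes were called in any of these lists, where 0 of all 18204 genes were called.

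**Figure D5:**
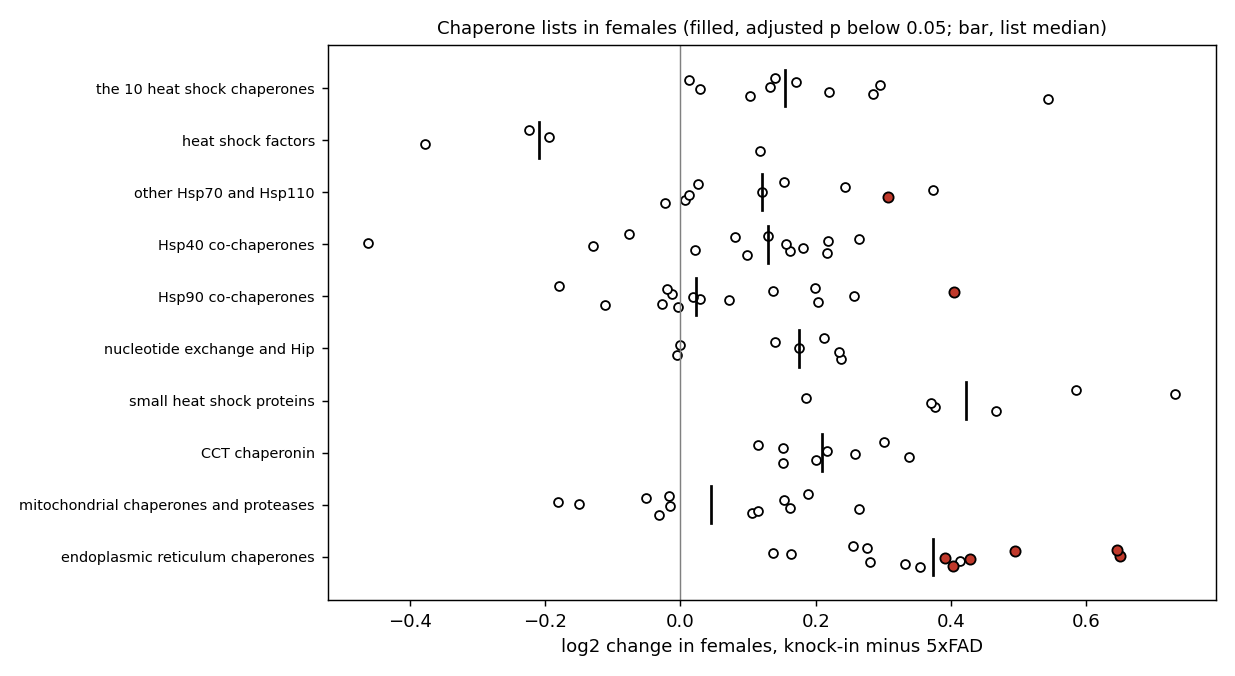
Log2 change with the knock-in in females of every tested gene in each chaperone list (1 point per gene, knock-in minus 5xFAD, filled where the edgeR adjusted p is below 0.05, bar at the list's median). The 6 filled endoplasmic reticulum genes lie between 0.39 and 0.65, and the 10 heat shock chaperones run from 0.01 to 0.54 with none filled.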

How the data were processed

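Hippocampal RNA from 19 mice was measured by bulk RNA sequencing with paired-end reads on NovaSeq and HiSeq instruments, per the labels' protocols. The authors deposited estimated counts per gene as whole numbers, and the submitters' processing notes name FastQC, Salmon, DESeq2, Seurat and the build mm39 without versions or steps. The authors also deposited normalized values, a signal scaled per gene and library, used only as an alternative on the log2(value + 1) scale, and variance-stabilized log2 values that the authors deposited and that entered no test. Whether the libraries keep the strand is not given in the sources used here, so overlapping transcripts on opposite strands cannot be told apart.

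GENCODE M21 gave symbols to 20023 of 20655 IDs. Counts were fitted with edgeR 4.0.16 in R 4.3.3 (TMM factors, filterByExpr with a minimum of 10 counts, robust quasi-likelihood F-test). The effect over both sexes used sex as a covariate, and the other 5 comparisons came from a model with 4 group means. P-values were adjusted by Benjamini-Hochberg over 18204 genes with a threshold of 0.05. Correlations used log2 CPM (prior count 2) with group means removed and 100000 permutations, for which the smallest p is 1e-05. DESeq2 1.42.0, limma-voom 3.58.1, other scalings and filters, a covariate for noncoding RNA and leaving out each library served as alternatives. The labels do not say that animals came from separate litters. All 36 within-group pairs of libraries differed beyond sampling noise. On simulated data 90.5% of 200 genes changed by a log2 fold of 1 were recovered in the female comparison (18219 genes). The members' estimates in females were at most 0.54, and recovery at such sizes was not simulated. The members, gene lists and tests were chosen with earlier results of these data known. From each list the text names the genes past the threshold, up to 6, and otherwise up to 2 with the lowest p.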

Additional observations from a re-analysis of the deposited data

Results flagged for a closer look

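Dnajb1 in knock-in females was flagged for a sample far from the others of its group. Knock-in female 1 had 60.8 CPM, and the other 3 had 51.8 to 53.0 CPM. The same animal had the highest Hspa1a and Hspa1b of the knock-in females. This was 1 of 40 sets of a gene and a group examined, and chance flags about 1 in 20 such groups.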

How the results depend on the processing

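Over the alternatives, 79 of 1708 values of the 10 chaperones changed sign and 23 were called, with 0 both changed in sign and called. In females, edgeR called 0 chaperones, DESeq2 called 3 (Bag3, Hsp90aa1 and Hspa8, adjusted p = 0.0195, 0.0119 and 0.0213), RLE size factors 1 (Bag3, 0.0468), no filter on low counts 1 (Bag3, 0.0414), and a minimum of 1 CPM in at least 4 libraries 2 (Bag3, 0.0391, and Hsp90aa1, 0.0475). Leaving out 1 library gave 0 to 3. Bag3 was called without knock-in female 1 (edgeR adjusted p = 0.0296), and likewise with 1 knock-in male omitted (male 7, 0.0469, male 9, 0.0459, or male 10, 0.0324). The same held with 5xFAD female 3 omitted (0.0336) and with 5xFAD male 6 (0.045), 9 (0.0403) or 10 (0.0381) omitted. Hsp90aa1 was called without knock-in male 7 (0.0368) or 10 (0.0401), and Hspa8 without knock-in male 10 (0.0456). For the difference between the sexes DESeq2 called 3 (Hspa8, Hsp90aa1 and Hsph1, adjusted p = 0.019, 0.0026 and 0.0321), and leaving out 1 library gave 0 to 2, both without knock-in male 7 (Hsp90aa1, edgeR adjusted p = 0.019, and Hspa8, 0.0497). The cause of these differences was not tested.

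Changes of sign were as follows. In females the library size alone gave -0.068 for Hspa1a and -0.087 for Hspe1, and the authors' normalized values gave -0.044 for Hspe1. The noncoding RNA covariate gave -0.37 for Hspa1a, -0.20 for Hspa1b, -0.015 for Hsp90ab1, -0.16 for Dnajb1, -0.0027 for Hsph1, -0.16 for Hspd1 and -0.27 for Hspe1. In males the authors' values gave -0.019 for Hspa1b, and over both sexes they gave 0.0095 for Hsph1. Leaving out 1 library gave -0.038 to 0.093 for Hspa1a, -0.034 to 0.29 for Hspa1b and -0.042 to 0.11 for Hspe1 in females, and -0.0019 to 0.25 for Hspa1a and -0.031 to 0.26 for Hspa1b in males.

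The count over all genes moved much more. Over both sexes edgeR called 4, DESeq2 107, limma-voom 2, library size alone 1, the noncoding covariate 2, the authors' values 1, and leaving out 1 library 1 to 127. In females it called 1013, DESeq2 1810, the covariate 0, and leaving out 1 library 0 to 1334, with 0 without knock-in female 2 or 4. In males the counts were 0, DESeq2 19, library size alone 1 and 0 to 2 without 1 library. For the difference between the sexes they were 56, DESeq2 766, library size alone 402, 0 with limma-voom, RLE, no filter, the covariate or the authors' values, and 0 to 489 without 1 library. The sex effect gave 9 in knock-in animals, DESeq2 510, the authors' values 17 and 8 to 340 without 1 library, and 7 in 5xFAD animals, DESeq2 16. For the endoplasmic reticulum list in females, an alternative added after seeing the data, the count of 6 was 3 with library size alone or the authors' values, 0 with the covariate, and 0 to 7 without 1 library. Library size alone moved the all-gene median of the sex difference to -0.15, against -0.02 with TMM factors.

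The 9 same-numbered pairs of knock-in and 5xFAD libraries gave correlations of -0.355 to 0.237 (median -0.189), with 2 above 0.1. These values show no pairing by number, but 9 pairs are too few to exclude it. With the replicate number as a block 0 genes were called in both sexes, in females or for the difference between the sexes, 0 endoplasmic reticulum genes in females, and Hspe1 in females was -0.072.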

Other observations

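Other stress programmes in the same females were read from lists of immediate early genes, glucocorticoid response genes and cold-inducible RNA-binding proteins. Of 12 immediate early genes, which neuronal activity induces, 0 were called by edgeR, 1 passed at an unadjusted p of 0.05 (all genes, 5.56% and 22.1%), and the median log2 change was -0.43. Npas4 had the lowest p of that list, with a log2 change of -0.98, knock-in minus 5xFAD (edgeR adjusted p = 0.066). Of 9 glucocorticoid response genes 1 was called, where 1.13% of all genes were called higher. It was Pdk4, a kinase that restrains pyruvate use, at a log2 change of 0.55 (edgeR adjusted p = 0.040), and 11 of 29 alternatives ended that call. Of 2 cold-inducible RNA-binding proteins 0 were called. Cirbp had 36.3 ± 3.44 CPM in knock-in females and 45.6 ± 4.90 CPM in 5xFAD females (SD, n = 4 and 5), and its log2 change of -0.33 did not pass (edgeR adjusted p = 0.107). Rbm3 had 61.7 ± 13.3 CPM in knock-in females and 65.8 ± 9.25 CPM in 5xFAD females. Its log2 change was -0.09 (edgeR adjusted p = 0.755). In males 0 genes of these lists were called, where 0 of all 18204 genes were.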
